A study of Mus musculus with 2 samples.

Results

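The D-type cyclins Ccnd1, Ccnd2 and Ccnd3, the E-type cyclins Ccne1 and Ccne2, and the cyclin-dependent kinase (CDK) inhibitors Cdkn1a, Cdkn1b, Cdkn1c, Cdkn2c and Cdkn2d were examined at single-cell level in cells induced toward osteoclasts (OCs). They are 10 of the 32544 genes counted in both libraries and were chosen by name, with earlier results of these data known. Murine bone marrow-derived monocytes (BMDMs) were profiled by single-cell mRNA sequencing. They were given 50 ng/ml M-CSF, the growth factor of the monocyte lineage, and 100 ng/ml RANKL, the cytokine that drives OC formation, and taken 24 h after RANKL. One library came from a culture labelled control, whose alleles the labels do not give, and the second library, called mutant here, from a LysM-Cre;Arid1afl/fl culture. LysM-Cre is a recombinase driven from the Lyz2 locus in myeloid cells, and in Arid1a, whose product belongs to the BAF chromatin remodeler, exons 5 and 6 are flanked by loxP sites. Bone marrow cultures were made from mice 4 to 6 weeks old, and no sex was set. With 1 library in each group there is no replicate, no difference has a test across samples, and all values describe these libraries. Ranges in parentheses are 95% intervals that cover counting error only.

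Progression from G1 into S phase is driven by cyclins bound to their kinases. D-type cyclins activate CDK4 and CDK6 in response to growth factors, which starts the phosphorylation of the retinoblastoma protein and releases E2F transcription factors, and E2F in turn induces the E-type cyclins that activate CDK2. INK4 inhibitors such as Cdkn2c and Cdkn2d bind CDK4 and CDK6 alone, whereas the Cip/Kip inhibitors Cdkn1a, Cdkn1b and Cdkn1c bind cyclin-CDK2 complexes. OC precursors proliferate under M-CSF and leave the cycle as they differentiate under RANKL.

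Cells with at least 500 detected genes and at most 10% mitochondrial counts were kept, which left 6269 control cells with a median of 23978 unique molecular identifiers (UMIs) and 5663 mutant cells with a median of 21734 UMIs. Levels are UMIs of a gene summed over cells per 1e6 UMIs of those cells (CPM). The 3′ kit reads 1 tag for each molecule, so levels were not divided by transcript length. Arid1a stood at 51.9 CPM (50.8 to 53) in control and 20.4 CPM (19.7 to 21.2) in mutant cells, although 3′ tags lie outside the floxed exons and do not read the deletion itself. Monocytic genes were high in both libraries, with Csf1r, the M-CSF receptor, at 256 and 402 CPM. Other cell types were present at low numbers. Neutrophil transcripts made up at least 1% of UMIs in 19 control and 89 mutant cells, class II genes at least 0.5% in 5 and 35 cells, and stromal genes at least 0.1% in 3 cells of each library. S100a8 was at 111 CPM in control and 880 CPM in mutant cells.

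Over all cells, the counting interval lay above 0 for 8 of the 10 members in the mutant-over-control ratio. Such intervals are narrow at this depth and were not counted over all genes, so nothing about the members was read from this number. Cdkn1c, which encodes the Cip/Kip inhibitor p57, differed most among the members counted at a mean level of 5 CPM or more, at 5.0-fold. Ccnd1, Cdkn1b and Cdkn2c were 1.52, 1.53 and 1.54-fold higher, just past the 1.5-fold that was used to call a difference. Of the 9 members at a mean of at least 5 CPM, 4 were past 1.5-fold higher, beside 13.1% of 8650 genes, and 0 were past it lower, beside 5.94%. The median log2 ratio was 0.37 over these 9 members and 0.05 over all 8650 genes. When counts were scaled by TMM, by the median of ratios or by totals without mitochondrial and ribosomal protein genes, each ratio was smaller by 0.06 to 0.11 on the log2 scale, and Cdkn1c alone remained past 1.5-fold.

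**Figure D1:**
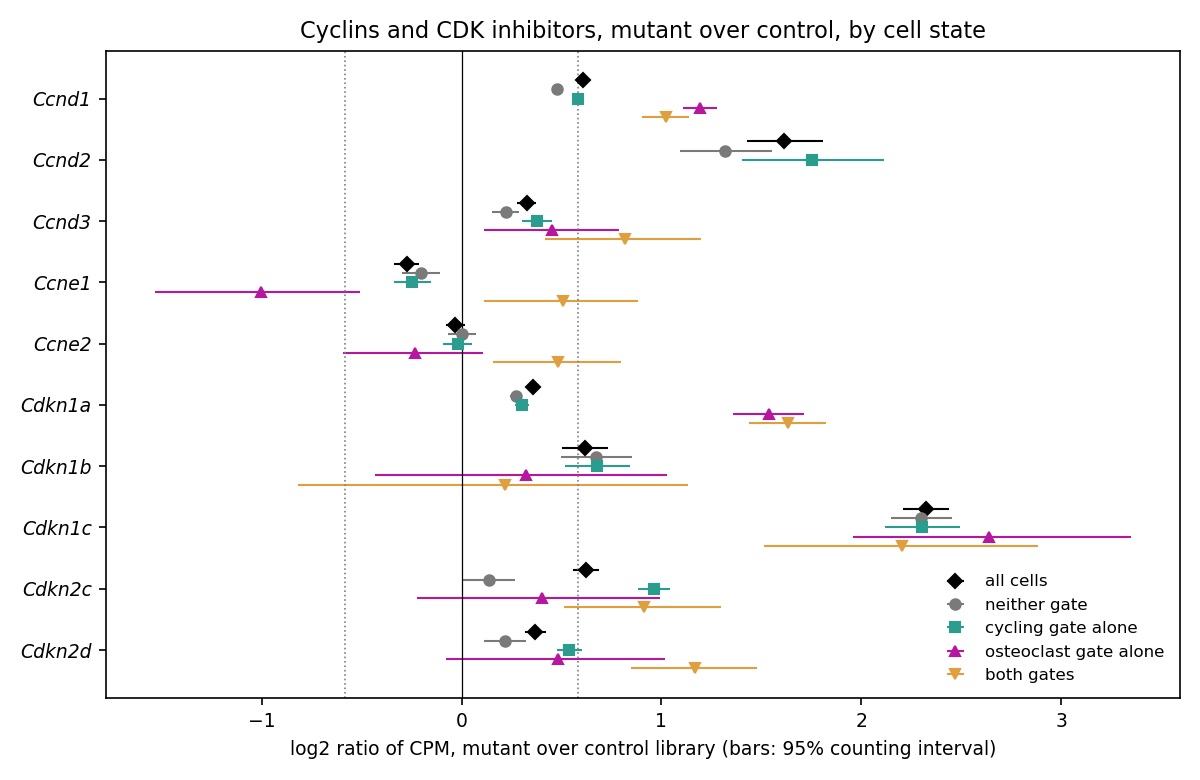
Log2 ratio of CPM in the mutant over the control library for the 10 genes, over all cells and inside the 4 cell states set by cycling and osteoclast transcripts; symbols are ratios, bars 95% counting intervals, dotted lines 1.5-fold, and values resting on fewer than 20 UMIs in all are not drawn. Cdkn1c lies between 2.20 and 2.64 in every state, whereas Cdkn1a and Ccnd1 lie farther right in the 2 states with osteoclast transcripts.

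Among the D-type cyclins, Ccnd1 was the most abundant member in both libraries. Ccnd1 (ENSMUSG00000070348, chromosome 7 from 144483668 to 144493662, minus strand, GRCm39) was at 591 CPM (587 to 594) in control and 898 CPM (893 to 903) in the mutant, a log2 ratio of 0.61 (0.59 to 0.62). At 5000 UMIs per cell the median cell held 2 Ccnd1 UMIs in control and 4 in the mutant library, so the higher level was spread over cells. LTO1, which overlaps Ccnd1 on the opposite strand, was at 24.9 and 39.1 CPM, a log2 ratio of 0.65, and use of strand in the counting was not stated. Ccnd3 (ENSMUSG00000034165, chromosome 17 from 47815767 to 47910624, plus strand), the D-type cyclin common in blood cells, was at 40.4 CPM (39.4 to 41.4) and 50.6 CPM (49.4 to 51.9), a log2 ratio of 0.33 (0.28 to 0.37). Its overlapping neighbour on the opposite strand, Bysl, differed the other way, at 33.4 and 21.6 CPM. Ccnd2 (ENSMUSG00000000184, chromosome 6 from 127102125 to 127129156, minus strand) was the lowest member, at 1.97 CPM (1.76 to 2.20) and 6.05 CPM (5.63 to 6.48), under the mean set for calling.

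The Ccnd2 counts came in part from other cells. Cells with neutrophil, stromal or class II transcripts were 0.431% of control and 2.24% of mutant cells, and they held 9.29% and 17.9% of all Ccnd2 UMIs. The 3 stromal-marker cells alone stood at 238 CPM in control and 370 CPM in mutant cells, and 35 mutant class II cells at 153 CPM. Without all these cells the Ccnd2 log2 ratio was 1.49, against 1.62 with them. Ccnd3 was likewise higher in neutrophil-marker cells, at 200 CPM (142 to 275) in control and 291 CPM (261 to 324) in mutant cells. So were Cdkn2d, at 100 and 113 CPM, and Cdkn1b, at 26.3 and 33.0 CPM, whereas Ccnd1 and Cdkn1a were lower there than over all cells. Without cells of the 3 marker sets, 3 members were past 1.5-fold higher instead of 4, with no share over all genes beside it. Cdkn1b was then at a log2 ratio of 0.584, just under the 0.585 of 1.5-fold.

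The E-type cyclins were not higher in the mutant library. Ccne1 (ENSMUSG00000002068, chromosome 7 from 37797404 to 37808264, minus strand) was at 30.1 CPM (29.2 to 30.9) in control and 24.8 CPM (24 to 25.7) in the mutant, a log2 ratio of -0.28 (-0.34 to -0.21). It overlaps 1600014C10Rik on the opposite strand, which was at 3.03 and 10.6 CPM. Ccne2 (ENSMUSG00000028212, chromosome 4 from 11190303 to 11204947, plus strand) was at 45.8 CPM (44.7 to 46.8) and 44.8 CPM (43.7 to 46.0), and the interval of its log2 ratio, -0.08 to 0.02, included 0. Ccne1 was thus the only member whose interval over all cells lay below 0.

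Of the Cip/Kip inhibitors, Cdkn1a was abundant and the other two were rare in the control library. Cdkn1a (ENSMUSG00000023067, chromosome 17 from 29309936 to 29319701, plus strand), which encodes p21 and is a well-known target of p53, was at 181 CPM (179 to 183) in control and 232 CPM (230 to 235) in the mutant, a log2 ratio of 0.36 (0.34 to 0.38). Cdkn1b (ENSMUSG00000003031, chromosome 6 from 134897364 to 134902476, plus strand), which encodes p27, was at 6.80 CPM (6.41 to 7.21) and 10.4 CPM (9.88 to 11), a log2 ratio of 0.62 (0.50 to 0.73). Cdkn1c (ENSMUSG00000037664, chromosome 7 from 143012069 to 143014806, minus strand), an imprinted gene expressed from the maternal allele, was at 4.87 CPM (4.54 to 5.22) and 24.4 CPM (23.5 to 25.2), a log2 ratio of 2.32 (2.21 to 2.44). The genes overlapping Cdkn1b and Cdkn1c were counted with at most 2 UMIs in a library.

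The higher Cdkn1c level was seen as more cells with a UMI and as more UMIs in a cell. At 5000 UMIs per cell, a Cdkn1c UMI was held by 134 of 6101 cells (2.20%, 1.84 to 2.60) in the control library and by 514 of 5312 (9.68%, 8.89 to 10.5) in the mutant library. Of these, 1 control and 19 mutant cells held 3 or more. Without thinning, the shares of the same cells were 9.54% and 31.5%. The neutrophil-marker cells, taken as the background of free RNA, showed 0 of 17 in the control library, which allows a share of up to 19.5%, and 2 of 75 (2.67%, 0.325 to 9.30) in the mutant library, at median depths of 8616 and 10828 UMIs against 24266 and 22412 over all cells. The mutant share lay above that interval and the control share within it. Cells with any of the 3 marker sets carried only 0.125% of control and 0.375% of mutant Cdkn1c UMIs.

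Both INK4 inhibitors were higher in the mutant library. Cdkn2c (ENSMUSG00000028551, chromosome 4 from 109517957 to 109524386, minus strand), which encodes p18, was at 20.8 CPM (20.1 to 21.5) in control and 31.9 CPM (31.0 to 32.9) in the mutant, a log2 ratio of 0.62 (0.56 to 0.69). Cdkn2d (ENSMUSG00000096472, chromosome 9 from 21199700 to 21202727, minus strand), which encodes the INK4 protein p19, was at 35.0 CPM (34.1 to 35.9) and 45.1 CPM (44.0 to 46.3), a log2 ratio of 0.37 (0.32 to 0.42). The other INK4 genes, Cdkn2a and Cdkn2b, were below the mean set for calling, at 4.41 and 3.79 CPM and at 2.24 and 1.29 CPM.

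Promoter sequence is printed for the inhibitors whose levels varied most between states, which were picked from these same levels. RefSeq start-site windows of GRCm38.p6 were matched for 6 of the 10 members, and Ccnd1, Ccnd2, Ccne2 and Cdkn1c had none in the table. Each window reaches from 250 bases before a start site to 50 after it, and 3 patterns were searched on both strands, TTCCCGC (E2F-like), CATGNNNNNNCATG (p53-like) and CCAAT. Capitals mark the match in the 250 bases before the start, printed 5′ to 3′ on the gene's strand. Cdkn1a and Cdkn2c each have 2 windows, and those printed hold one of the first 2 patterns. One Cdkn1a window, chr17:29090729-29090978 on the plus strand, holds the p53-like pattern at -48 from the start, which 0.712% of 32851 windows hold, and the second Cdkn1a window holds none of the patterns. One Cdkn2c window, chr4:109666757-109667006 on the minus strand, holds the E2F-like pattern at -25, found in 4.60% of windows, and the second Cdkn2c window holds only CCAAT, at 7 bases past the start. The Cdkn2d window, chr9:21291210-21291459 on the minus strand, holds CCAAT on the opposite strand at -220, found in 37.4% of windows, and neither of the other patterns. Of the matched members not printed, Cdkn1b held only CCAAT, at -161, -35 and 45, and Ccnd3 only CCAAT, at -108. Ccne1 held none of the patterns. None of the patterns overlap one another in these windows, and a match in letters does not show binding.
Cdkn1a: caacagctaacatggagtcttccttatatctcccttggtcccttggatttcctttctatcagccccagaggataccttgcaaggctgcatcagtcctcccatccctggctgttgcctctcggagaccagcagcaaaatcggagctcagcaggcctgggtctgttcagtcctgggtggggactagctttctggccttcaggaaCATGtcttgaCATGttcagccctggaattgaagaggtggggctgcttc
Cdkn2c: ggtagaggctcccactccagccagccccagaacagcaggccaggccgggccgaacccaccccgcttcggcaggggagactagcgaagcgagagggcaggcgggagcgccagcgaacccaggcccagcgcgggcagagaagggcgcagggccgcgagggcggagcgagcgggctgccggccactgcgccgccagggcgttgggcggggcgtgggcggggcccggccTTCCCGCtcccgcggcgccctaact
Cdkn2d: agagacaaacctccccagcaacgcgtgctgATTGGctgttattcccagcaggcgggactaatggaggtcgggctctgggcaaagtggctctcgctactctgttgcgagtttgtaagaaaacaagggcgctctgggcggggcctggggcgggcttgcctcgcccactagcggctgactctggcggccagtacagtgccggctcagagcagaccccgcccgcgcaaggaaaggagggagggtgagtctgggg

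To compare cells of like state, each cell was thinned to 5000 UMIs and sorted by transcripts that are not members. The cycling gate took cells in which Aurka, Cdk1, Mki67 and Top2a summed to 3 UMIs or more, and the osteoclast gate took cells in which Acp5, Ctsk, Dcstamp and Mmp9 did. Of 6101 control cells, 55.1% were in neither gate, 35.3% in the cycling gate alone, 5.59% in the osteoclast gate alone and 4.06% in both. Of 5312 mutant cells the shares were 64.8%, 32.1%, 2.24% and 0.904%, the last being 48 cells. On unthinned counts the shares in the same order were 21.4%, 50.6%, 6.20% and 21.8% in control and 29.6%, 47.5%, 7.61% and 15.3% in the mutant. Both gates together were thus less common in the mutant library at either setting, whereas the osteoclast gate alone was less common at matched depth and more common without it. Levels of the matched-depth states were also weighted, in both libraries, by each state's share of the control UMIs, not of the cells. The log2 ratios were then 0.56 for Ccnd1, 0.37 for Cdkn1a, 2.31 for Cdkn1c, 0.76 for Cdkn2c and 0.51 for Cdkn2d. Ccnd1 was thus under the 1.5-fold that it passed over all cells. The rest were 1.54 for Ccnd2, 0.32 for Ccnd3, -0.21 for Ccne1, 0.01 for Ccne2 and 0.64 for Cdkn1b.

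The members differed in how their mutant-over-control ratio depended on state. Cdkn1c was higher in the mutant library by a like amount in each state, with log2 ratios of 2.30 in neither gate, 2.30 in the cycling gate alone, 2.64 in the osteoclast gate alone and 2.20 in both. Ccnd1 ratios were 0.48 (0.46 to 0.49), 0.58 (0.56 to 0.60), 1.19 (1.11 to 1.28) and 1.02 (0.90 to 1.14) in the same order. Cdkn1a ratios were 0.27 (0.24 to 0.30), 0.30 (0.27 to 0.34), 1.54 (1.36 to 1.71) and 1.63 (1.44 to 1.82). For Ccnd1 and Cdkn1a, the intervals of the states with osteoclast transcripts did not overlap those of the states without. These values depended on the gate, and with cells sorted on unthinned counts the ratios in the osteoclast gate alone and in both gates were 0.69 and 0.78 for Cdkn1a and 0.69 and 0.89 for Ccnd1, against 0.20 to 0.30 and 0.49 to 0.51 in the states without osteoclast transcripts. Cdkn2c was at a ratio of 0.14 (0.01 to 0.27) in neither gate but 0.96 (0.88 to 1.04) in the cycling gate alone, and Cdkn2d at 0.22 (0.11 to 0.32) and 0.54 (0.48 to 0.60).

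Counted by state, 2 of 9 members were past 1.5-fold higher in neither gate (Cdkn1b and Cdkn1c), beside 12.1% of all genes, and 0 lower, beside 4.99%. In the cycling gate alone 3 were higher (Cdkn1b, Cdkn1c and Cdkn2c), beside 13.9%, and 0 lower, beside 5.67%. In the osteoclast gate alone Ccnd1, Cdkn1a and Cdkn1c were higher, beside 20.3%, and Ccne1 was lower, beside 11.0%. In both gates 6 were higher (Ccnd1, Ccnd3, Cdkn1a, Cdkn1c, Cdkn2c and Cdkn2d), beside 19.4%, and 0 lower, beside 12.4%. Ccne1 in the osteoclast gate alone rested on 265 control and 38 mutant UMIs, a log2 ratio of -1.0 (-1.53 to -0.51), and was at -0.44 with gates needing 5 UMIs. In both gates its ratio was 0.51 (0.11 to 0.88), and -0.18 when cells were sorted on unthinned counts. Ccnd2 in the osteoclast gate alone had 1 control and 15 mutant UMIs, too few for a ratio to be read, and on unthinned counts its log2 ratio there was 0.99. In both gates, Ccnd3 was at 0.82 but at 0.10 with gates needing 5 UMIs, Cdkn2c at 0.91 but at 0.53 with gates on 2000 UMIs, and Cdkn2d at 1.17 but at 0.32 with the latter.

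**Figure D2:**
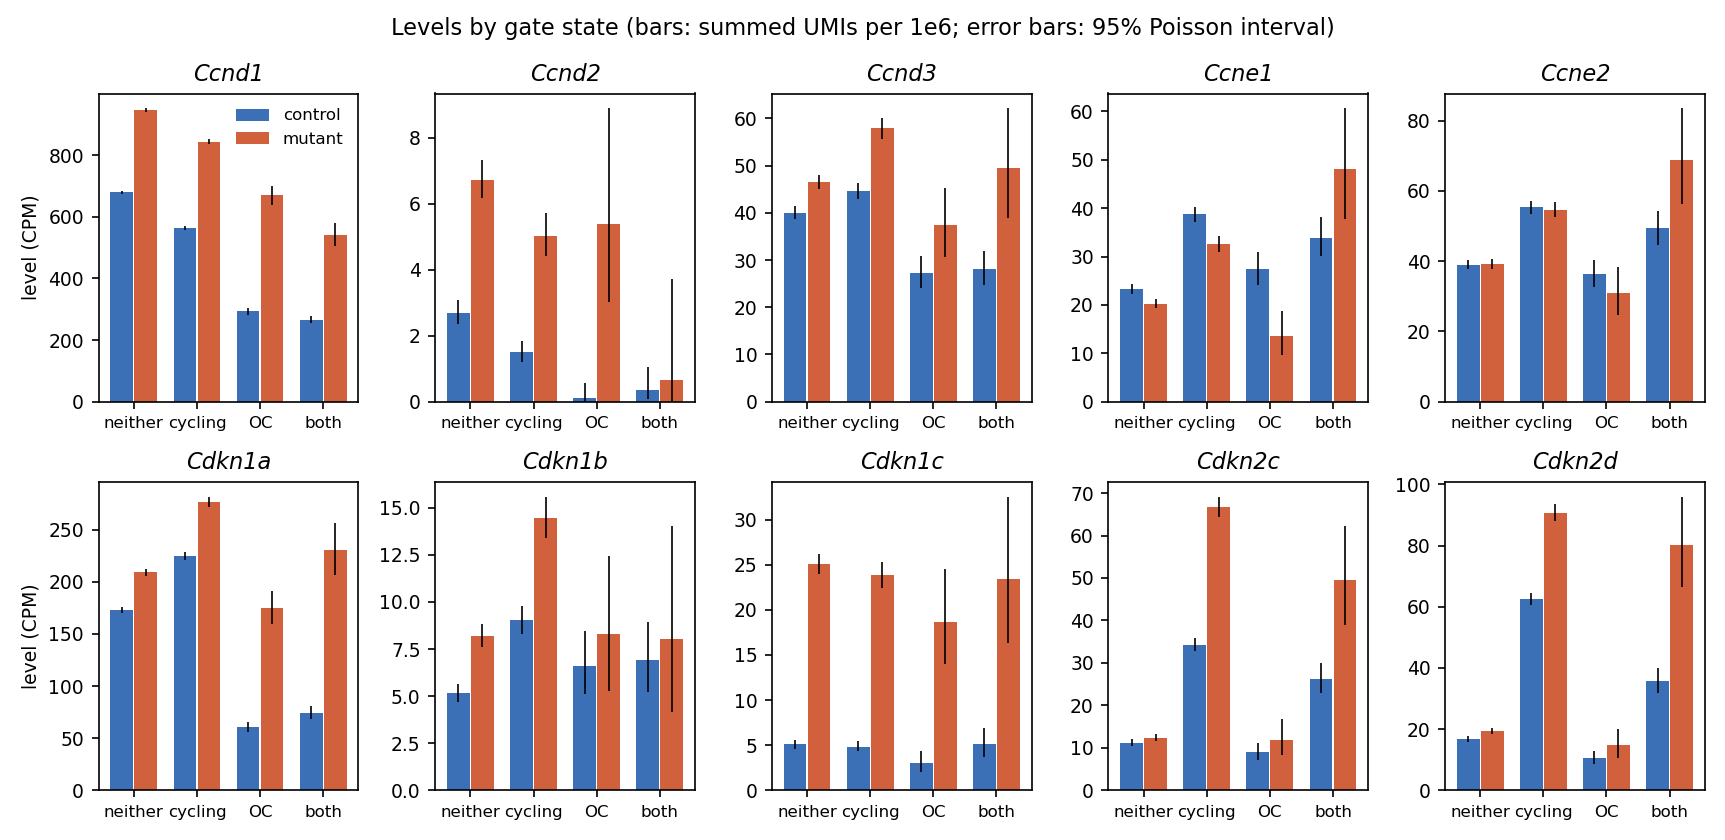
Levels in CPM of the 10 genes in each state (neither gate, cycling gate alone, OC for osteoclast gate alone, both gates), control in blue and mutant in orange; bars are summed levels and error bars 95% Poisson intervals. Ccnd1 and Cdkn1a were lowest in the control cells with osteoclast transcripts, at 266 to 293 and 60.4 to 74.5 CPM, and Cdkn2c and Cdkn2d were highest in the cycling gate alone.

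Within each library, cycling cells held more INK4 inhibitor transcripts than other cells. Cdkn2d was at 16.1 CPM (15.2 to 16.9) in other cells and 59.4 CPM (57.6 to 61.2) in cycling cells of the control library, a log2 ratio of 1.89. In the mutant library it was at 19.3 and 90.4 CPM, a ratio of 2.23. Cdkn2c was at 11 CPM (10.3 to 11.7) and 33.4 CPM (32.0 to 34.7) in control and at 12.3 CPM (11.6 to 13.1) and 66.2 CPM (63.9 to 68.6) in the mutant, log2 ratios of 1.60 and 2.42. The Cdkn2c ratio was larger in the mutant library by 0.82 (0.67 to 0.97) and the Cdkn2d ratio by 0.34 (0.22 to 0.46). The distance between the libraries was thus smaller outside the gate than inside it for both genes. In the cycling gate alone the sum of 12 G2/M genes, from Ccnb1 to Nusap1, stood at 1841 CPM in control and 2528 CPM in mutant cells, a log2 ratio of 0.46, and its part in the difference was not tested.

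Cdkn1b and Ccne1 were the other members past 1.5-fold higher in cycling cells, but not under every gate. Cdkn1b log2 ratios were 0.73 (0.56 to 0.90) in control and 0.80 (0.64 to 0.95) in the mutant library, and those of Ccne1 0.68 (0.60 to 0.76) and 0.72 (0.62 to 0.82). Cdkn1b was at 0.57 in control without Mki67 in the gate and at 0.53 in the mutant on unthinned counts. Ccne1 was at 0.27 and 0.15 with gates on 2000 UMIs, at 0.40 and 0.26 with gates needing 5 UMIs, and at 1.30 and 1.44 on unthinned counts. Ccne2 was at 0.50 in both libraries, but near 0 or below under the stricter gates, at 5.1e-05 in control and -0.30 in the mutant on 2000 UMIs and at 0.096 and -0.20 when 5 UMIs were needed. On unthinned counts it was at 1.55 and 1.87, past 1.5-fold in both libraries. Cdkn1a, often described as a brake on the cycle, was higher in cycling cells too, by 0.36 (0.33 to 0.39) and 0.41 (0.37 to 0.44). Cdkn1c did not differ detectably, at -0.00 (-0.21 to 0.20) and -0.06 (-0.16 to 0.05), and Ccnd1 was lower, at -0.27 and -0.17, although the mutant value was 0.071 on unthinned counts. In the control library 4 of 8 members read were past 1.5-fold higher, beside 5.27% of all genes, and 0 lower, beside 0.563%. In the mutant library 4 of 10 were higher, beside 6.22%, and 0 lower, beside 0.608%. Without Mki67 in the gate the control count was 2, with no share over all genes given beside it.

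To place the members within the cycle, cells were sorted by 12 S-phase genes (Mcm2 to Mcm7, Pcna, Cdc6, Gins2, Rrm2, Tyms and Uhrf1) and 12 G2/M genes (Ccnb1, Cdc20, Plk1, Cenpf, Cenpe, Hmmr, Tpx2, Kif20b, Ube2c, Cenpa, Birc5 and Nusap1), each with at least 3 UMIs at 5000 UMIs per cell. The E-type cyclins went with the S-phase genes. Ccne2 was at 65.0 CPM (62.9 to 67.3) in control cells with the S list alone and 7.27 CPM (6.09 to 8.62) with the G2/M list alone, and at 64.0 and 4.83 CPM in mutant cells. Ccne1 was at 35.5 and 6.73 CPM in control and 30.7 and 2.56 CPM in mutant cells. Ccnd1 was highest with the S list alone in both libraries, at 717 and 1015 CPM.

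The INK4 inhibitors went with the G2/M genes. Cdkn2d was at 13.1 CPM (12.1 to 14.1) in control cells with the S list alone and 50.5 CPM (47.3 to 53.8) with the G2/M list alone, and at 13.8 CPM (12.8 to 14.9) and 91.4 CPM (86.9 to 96.1) in mutant cells. Cdkn2c was at 13.6 CPM (12.6 to 14.6) and 23.7 CPM (21.5 to 26.0) in control and at 13.2 CPM (12.2 to 14.3) and 58.7 CPM (55.1 to 62.5) in mutant cells. In S-list cells no difference between the libraries was detectable, with mutant-over-control log2 ratios of -0.04 (-0.20 to 0.12) for Cdkn2c and 0.08 (-0.08 to 0.24) for Cdkn2d. With the G2/M list alone the ratios were 1.31 (1.15 to 1.48) and 0.86 (0.74 to 0.98). The summed G2/M list was itself higher in the mutant cells of that state, at 3265 against 2224 CPM, a log2 ratio of 0.55 (0.54 to 0.57). The 4 cycling-gate genes summed to 898 against 623 CPM there, a ratio of 0.53. Without Mki67 they summed to 718 against 417 CPM, a ratio of 0.79 (0.74 to 0.83). The cycling gate held 47.5% of the mutant and 35.2% of the control cells of that state. The part of these differences in the INK4 difference was not tested. Cdkn1b was at 7.33 and 14.7 CPM in the G2/M list alone, a ratio of 1.01 (0.70 to 1.32), against 0.50 (0.27 to 0.73) with the S list alone. Cdkn1c in the G2/M list alone was at 4.43 and 34.8 CPM, a ratio of 2.97 (2.64 to 3.33), against 1.70 (1.44 to 1.97) with neither list.

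**Figure D3:**
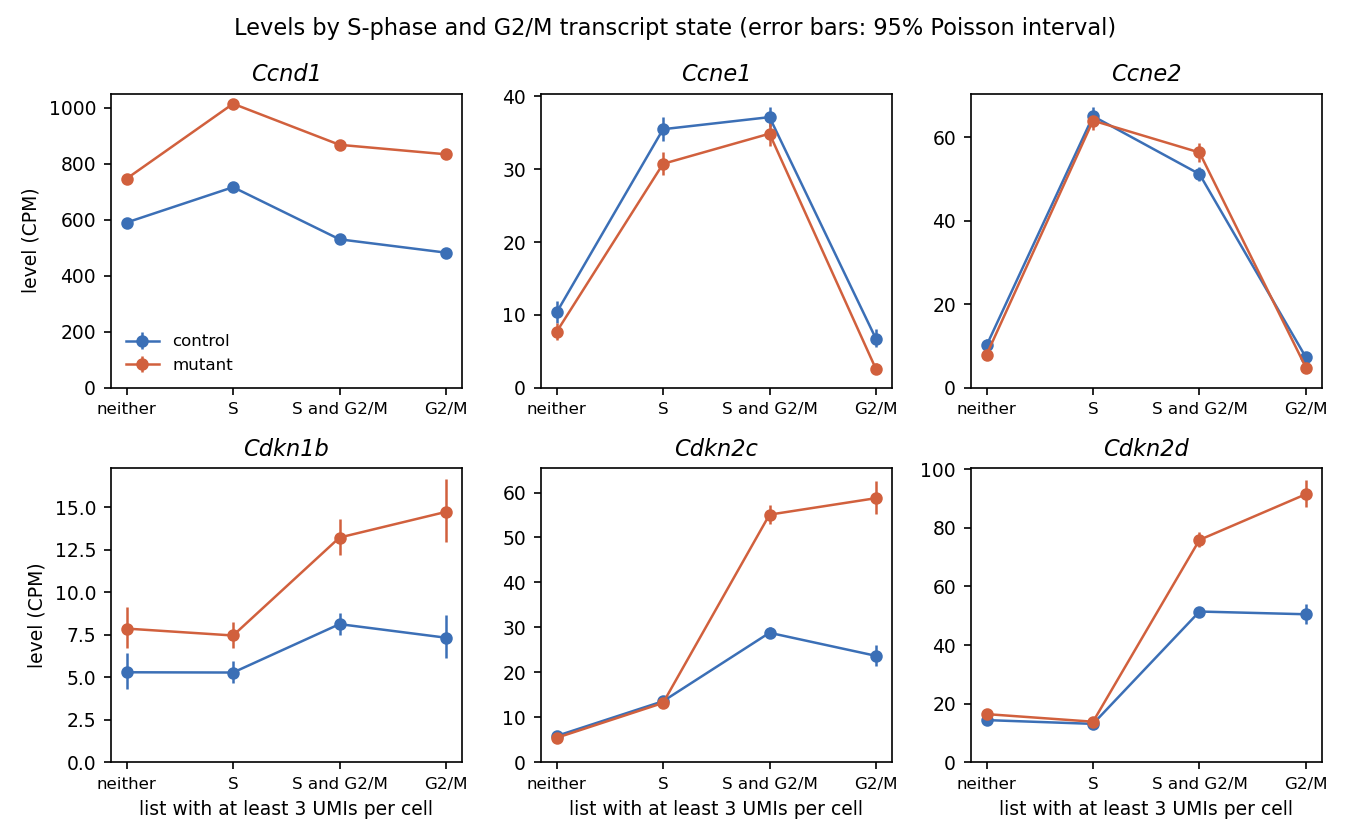
Levels in CPM of 6 members in cells with neither list, the S list alone, both lists or the G2/M list alone; points are summed levels, bars 95% Poisson intervals, control in blue and mutant in orange. Ccne1 and Ccne2 are high wherever S-list genes were seen, and Cdkn2c and Cdkn2d separate the libraries only where G2/M genes were seen.

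The number of cycling-gate UMIs gave a finer scale. From cells with 0 such UMIs to cells with over 10, Cdkn2c went from 7.85 to 48.7 CPM in control and from 8.21 to 123 CPM in mutant cells. Cdkn2d went from 11.7 to 98.1 CPM and from 15.6 to 178 CPM. Both genes were higher in each successive bin (0, 1 to 2, 3 to 5, 6 to 10 and over 10 UMIs). Ccne1 and Ccne2 instead were highest at 3 to 5 UMIs, where Ccne2 was at 63.7 CPM in control and 73.9 CPM in mutant cells, and low over 10 UMIs, at 22.1 and 11.4 CPM. These bins were chosen after the data were seen. The genes behind the scale were not alike between the libraries. In the cycling gate alone Mki67 was at 316 CPM in control and 215 CPM in mutant cells. Top2a was at 483 and 608 CPM, Cdk1 at 184 and 240 CPM and Aurka at 69.2 and 77.9 CPM. Their part in the differences between libraries within a bin was not tested.

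Cells with osteoclast transcripts had less Ccnd1 and Cdkn1a in the control library. Ccnd1 was at 629 CPM (625 to 633) in other cells and 281 CPM (273 to 289) in osteoclast-gate cells, a log2 ratio of -1.16. In the mutant library it was at 908 CPM (903 to 913) and 625 CPM (601 to 649), a ratio of -0.54. Cdkn1a was at 195 CPM (193 to 198) and 66.9 CPM (63.2 to 70.8) in the control, a ratio of -1.55, and at 234 CPM (231 to 237) and 195 CPM (182 to 208) in mutant cells, a ratio of -0.27. The drop was smaller in the mutant library by 0.62 (0.55 to 0.69) for Ccnd1 and by 1.28 (1.15 to 1.41) for Cdkn1a. With cells sorted on unthinned counts the ratios were nearer 0, at -0.55 in control and -0.23 in the mutant for Ccnd1 and at -0.59 and -0.069 for Cdkn1a. With gates on 2000 UMIs or needing 5 UMIs, the Cdkn1a ratios were -1.79 and -1.80 in control and -0.91 and -0.74 in the mutant. Cdkn2d ratios were -0.72 and -0.27 and Ccnd3 ratios -0.60 and -0.28, while those of Ccne1, 0.02 and 0.06, had intervals that included 0.

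In the control library 4 of 8 members read (Ccnd1, Ccnd3, Cdkn1a and Cdkn2d) were past 1.5-fold lower in osteoclast-gate cells, beside 10.3% of all genes, and 0 higher, beside 6.29%. In the mutant library 0 of 9 were past it lower, beside 3.86%, or higher, beside 4.07%. These counts depended on the gate. With at least 5 UMIs required, 5 mutant members were lower, and at 2000 UMIs per cell 2 were, and on unthinned counts the control count was 1. No share over all genes is given beside these alternative counts, so they were not set against a background. Cells inside the gate were also not alike, since the 4 osteoclast genes summed to 1643 CPM in control and 991 CPM in the mutant cells of the osteoclast gate alone, a log2 ratio of -0.73 (-0.79 to -0.67).

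Levels at a matched number of osteoclast UMIs were therefore compared, although a matched sum does not match the genes within it. In the osteoclast gate alone Mmp9 was at 389 CPM in control and 98.2 CPM in mutant cells. Dcstamp was at 73.5 and 25.2 CPM, Ctsk at 423 and 237 CPM and Acp5 at 757 and 631 CPM. The part of this in the differences between libraries was not tested. Ccnd1 in the control library was at 651, 555, 354, 276 and 132 CPM in cells with 0, 1 to 2, 3 to 5, 6 to 10 and over 10 osteoclast UMIs. In the mutant library it was at 921, 865, 694, 496 and 420 CPM, the last over 16 cells, so it stood lower in each successive bin of both libraries and above the control in each bin. Cdkn1a was at 205, 163, 81.5, 63.8 and 39.6 CPM in control and at 242, 208, 222, 178 and 61.1 CPM in mutant cells. The Cdkn1a gap was widest at 3 to 5 and 6 to 10 UMIs, where 121 and 30 mutant cells stood at 222 CPM (206 to 240) and 178 CPM (150 to 211) against 81.5 CPM (75.7 to 87.7) and 63.8 CPM (57.0 to 71.3).

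**Figure D4:**
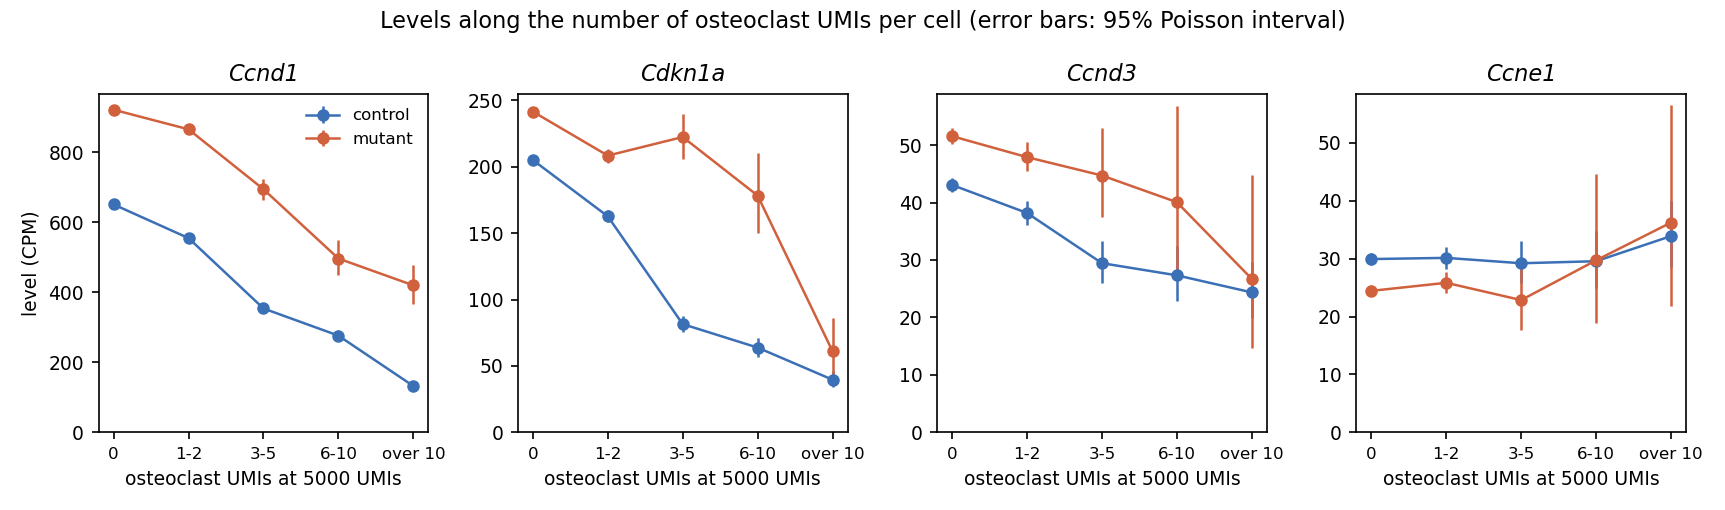
Levels in CPM of Ccnd1, Cdkn1a, Ccnd3 and Ccne1 in cells grouped by their UMIs over Ctsk, Mmp9, Acp5 and Dcstamp at 5000 UMIs per cell; points are summed levels, bars 95% Poisson intervals, control in blue and mutant in orange. Control Ccnd1 goes from 651 to 132 CPM and control Cdkn1a from 205 to 39.6 CPM, Ccne1 shows no such slope, and the last mutant point holds 16 cells.

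Among other genes of the pathway, Rb1 and E2f2 were higher in the mutant library. Of 38 listed kinases, later cyclins, pocket proteins, E2F and DP factors, INK4 genes and regulators, 36 reached a mean of 5 CPM, and 2 were past 1.5-fold higher, beside 13.1% of all genes, and 0 lower, beside 5.94%, with a median log2 ratio of 0.04. Rb1, the retinoblastoma gene, was at 13.5 and 23.9 CPM, a ratio of 0.82 (0.74 to 0.90). E2f2, an activating E2F, was at 26.8 and 40.8 CPM, a ratio of 0.61 (0.55 to 0.66). Of 12 genes known as p53 targets beside Cdkn1a, 9 could be read, and 1 was higher (Btg2, 1.06) and 1 lower (Phlda3, -0.62), with a median of -0.04, beside the same 13.1% and 5.94%, so these counts were near the background. Below the mean set for calling, Sesn2 was at 2.95 and 6.79 CPM, a ratio of 1.21 (1.04 to 1.37). Trp53inp1 was at 2.26 and 4.33 CPM, a ratio of 0.94 (0.75 to 1.13), and Eda2r had 7 UMIs in each library.

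Of 5 kinases, 0 were past 1.5-fold higher, beside 13.1% of all genes, and 0 lower, beside 5.94%, so nothing was read from this count. The mutant-over-control folds of Cdk4 and Cdk2, 0.71 and 1.46, lay near the line. Cdk4, a kinase partner of the D-type cyclins, was at 149 CPM (147 to 151) in control and 106 CPM (104 to 108) in the mutant, a log2 ratio of -0.50, and Cdk6 at 164 and 146 CPM, a ratio of -0.17. Cdk2, the kinase of the E-type cyclins, went the other way, at 18.2 and 26.5 CPM, a ratio of 0.55 (0.48 to 0.62). The ratios of Cdk1 and Cdk7 were 0.12 and -0.10. In the osteoclast gate alone, Cdk4 was at 161 and 110 CPM. Mdm2, a p53 target, was at 104 CPM (97.6 to 111) in control and 124 CPM (111 to 138) in mutant cells of that state, where Cdkn1a was at 60.4 and 175 CPM. In neither gate Mdm2 was instead lower in the mutant library, at 168 and 130 CPM, as in the cycling gate alone, at 167 and 141 CPM. Ccng1, also known as a p53 target, was at 42.8 CPM (38.8 to 47.1) and 38.1 CPM (31.2 to 46.1) in the osteoclast gate alone. The 5 kinases, Mdm2 and Ccng1 were named here after their values were seen.

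Over the 8 combinations of state and library, Cdkn2c and Cdkn2d followed each other, with a Pearson r of 0.99 on log2(CPM + 1). Among 5205 other genes at a mean of at least 20 CPM, those most like Cdkn2d were Kif20a, Rad21 and Smchd1, and those most like Cdkn2c were Rad21, Cip2a and Smchd1, each at an r of 0.99. Ccne1 was most like Chaf1b, Myg1 and Cnot11 (0.97 to 0.98) and Ccne2 most like Slbp, Vac14 and Gins4 (0.96 to 0.98). Ccnd1 was most like Lilrb4a, Taldo1 and Tmsb4x. Cdkn1a was most like Mfsd1, Kcnn4 and Gclm, Cdkn1b most like Rtca, Rer1 and Mzt1, and Cdkn1c most like Hsd17b11, Daxx and Aup1. These correlations are descriptions over 8 points from 2 libraries, which share depth and state mix within a library.

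Most cells of both libraries held a Ccnd1 UMI at 5000 UMIs per cell. Ccnd1 was seen in 85.2% (84.3 to 86.1) of the cells in control and 90.5% (89.6 to 91.2) of those in mutant, and Cdkn1a in 44.8% (43.6 to 46.1) and 50.9% (49.6 to 52.3). The same shares in neutrophil-marker cells were 23.5% and 17.3% for Ccnd1 and 17.6% and 22.7% for Cdkn1a. For Ccnd2, Ccnd3, Cdkn1b and Cdkn2d the share over all cells, between 1.00% and 22.6%, was not above that in neutrophil-marker cells, so nothing was read from their shares. Ccnd3, Cdkn1b and Cdkn2d levels were higher in neutrophil-marker cells than over all cells, so for these genes the comparison cannot measure free RNA. Ccne1 was seen in 12.0% and 10.4%, Ccne2 in 18.3% and 16.7%, and Cdkn2c in 8.85% and 12.4% of cells, which lay within the intervals of their shares in the 17 control and 75 mutant neutrophil-marker cells, and nothing was read from them either. Without thinning, Ccnd1 was seen in 98.3% and 97.2% and Cdkn1a in 77.7% and 81.1% of the cells, so the order of the Ccnd1 shares turned and was not read, while the other shares lay between 3.62% and 61.5%.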

How the data were processed

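Single-cell mRNA sequencing of 1 control and 1 LysM-Cre;Arid1afl/fl culture was analysed. The files hold unnormalized UMI counts for every gene and barcode, made by the authors from 10x 3′ v3.1 libraries. The file headers name Cell Ranger 6.1.0, and the labels name GRCm39. The methods name aggregation of samples, and whether these counts precede it, and whether strand was used, was not stated. The control library held 6455 barcodes and 164004706 UMIs, the mutant library 5865 and 131800059, and 8 barcodes occur in both. Cells with fewer than 500 genes or over 10% mitochondrial UMIs were left out (186 and 202). Members were matched by symbol, 31977 of 32544 identifiers matched GENCODE M39, and 38 symbols were repeated.

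Counts were summed over cells and scaled to CPM, with exact Poisson intervals, exact conditional intervals for log2 ratios and exact binomial (Clopper-Pearson) intervals for shares, at 95% and for counting error only. No test was possible with 1 library per group. A difference was called past 1.5-fold where a gene's mean level reached 5 CPM. Gates and shares used cells thinned to 5000 UMIs, which left out 168 control and 351 mutant cells. Levels inside a gate used all UMIs. Doublets were not removed, and an alternative removed 333 and 275 barcodes with the highest simulated-doublet scores. Other alternatives were TMM (edgeR 4.0.16), median-of-ratios and other totals, equal weight per cell, all barcodes, other gates, and cells without other cell types' transcripts. Named genes were the members, pathway genes past the fold, and the 3 genes most alike to each member (those of Ccnd3 are not reported here). The members and lists were chosen with earlier results of these data known. The calculations, in Python 3.11.15 with scipy 1.17.1, were tested on simulated data.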

Additional observations from a re-analysis of the deposited data

How the results depend on the processing

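No paired analysis was possible because each group holds 1 library. Of 543 single-gene values under alternatives, 385 stayed within their counting interval, 153 moved beyond it, and 5 changed sign from a value whose interval lay off 0. Of 118 alternatives to a count of members or pathway genes past 1.5-fold, 19 moved by over 1.5 times. Over all cells, 4 higher members became 1 with TMM, 1 with median of ratios and 1 with totals without mitochondrial and ribosomal protein genes. Under gates on 2000 UMIs, higher members in the cycling gate alone were 5 instead of 3, lower members in both gates 1 instead of 0, lower members in mutant osteoclast-gate cells 2 instead of 0, and the Ccne2 ratio of cycling over other mutant cells reversed to -0.30. Under gates needing 5 UMIs, the same values were 5, 2, 5 and -0.20, higher members in neither gate were 1 instead of 2, lower members in the osteoclast gate alone 0 instead of 1, and mutant-over-control Ccne2 in both gates was -0.69. Gates on unthinned counts gave -0.18 for mutant-over-control Ccne1 in both gates and 0.071 for Ccnd1 in cycling over other mutant cells, 1 lower member in mutant cycling cells instead of 0, and 1 lower member in control osteoclast-gate cells instead of 4. Without Mki67 in the gate, higher members were 1 in neither gate and 2 in control cycling cells instead of 4, and 1 was lower in mutant cycling cells. The pathway list had 1 higher gene at 20 CPM and 0 at 2-fold instead of 2, and 1 lower gene at 1 CPM instead of 0. Shares over all genes are given at the main setting only, so these alternative counts have no background beside them. The cause was not tested.

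Leaving out cells under 5000 UMIs, alone or together with cells carrying neutrophil, stromal or class II transcripts, and leaving the latter out of the gates, were chosen after seeing the data. Depth limits the gates. The mutant cells in both gates numbered 48, with 1494733 UMIs, so that 12 UMIs stood behind Cdkn1b there, and the stromal share set caught 3 cells in each library. No value separates genotype from culture, animal or run, since each library is all of these at once.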
